A study of Caenorhabditis elegans with 2 samples.

Results

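The 10 genes described here control the left/right asymmetry of the ASE neurons, a pair of taste neurons of the nematode Caenorhabditis elegans. They were taken from a fixed list of names: lsy-2, lsy-6, cog-1, die-1, che-1, lim-6, fozi-1, ceh-36, unc-37 and lsy-12. They make up 10 of 46890 annotated genes, 9 of them among 19973 protein-coding genes and 1, lsy-6, among 261 microRNA genes. The measurement was ChIP-seq of LSY-2 fused to eGFP in L1 larvae of both sexes, as whole animals. There was 1 group with 2 biological replicates and therefore no comparison between conditions. Both replicates came from strain OP367, which carries unc-119(tm4063) on chromosome III and the insertion wgIs367. The labels describe ChIP against the eGFP-tagged protein and list lsy-2 in the antibody field. They do not state the promoter or the copy number of the insertion, or how many animals were pooled. ASE neurons are a small minority of the cells in a larva, and signal from them cannot be told apart from that of other cells in these lists.

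The left neuron, ASEL, and the right neuron, ASER, share the zinc finger factor CHE-1, which switches on the genes common to both, and the Otx-type homeobox factor CEH-36. A double-negative loop then sets the sides apart. In ASEL the microRNA lsy-6 represses cog-1, a homeobox gene, and the zinc finger gene die-1 is active, whereas in ASER COG-1 works with the Groucho-type co-repressor UNC-37 to keep die-1 off. LSY-2, a zinc finger protein, and LSY-12, a histone acetyltransferase of the MYST family, are needed for lsy-6 expression. Downstream, the LIM homeobox gene lim-6 acts in ASEL, and fozi-1, a zinc finger gene with a formin homology domain, acts in ASER.

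For each gene, peaks were counted from 10 kb upstream of its start to its end, by the position of the summit. The authors deposited 30000 peaks for each replicate, 30000 for both replicates pooled, and 4218 pooled peaks past the threshold of the irreproducible discovery rate (IDR), which asks how well the replicates rank peaks alike. The 4218 were the strongest pooled peaks, with signals of 42.2 and above and a median of 87.4. The signal is the authors' own value for each peak, and the labels do not say which statistic it is. Levels differed between lists, with medians of 13.9 in the pool, 8.52 in replicate 1 and 7.84 in replicate 2, so signals are set side by side and compared by rank. Sequencing depth is unknown because read counts were not part of the lists.

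Binding past the IDR threshold was found at 3 of the 10 genes. Sequences are shown for 3 of the 4 sites past the threshold, those at lsy-12 and lim-6, and for 2 weaker sites at ceh-36. The second strongest site, at unc-37, is described by its position and values alone. The stretches below are 101 bases centred on the summit, on the ce11 build, 5′ to 3′ on the strand of the named gene. Capitals mark any match, on either strand, to 4 short motifs. The motif GAGAGA, the motif GACGCA and the motif ACCGTA were picked from summits in earlier results of these data, and GAAGCC is the core of the CHE-1 site of ASE genes. The strongest site, chrV:9860477-9860577 on the minus strand, lay in intergenic sequence 564 bp upstream of the lsy-12 start.
lsy-12 upstream site: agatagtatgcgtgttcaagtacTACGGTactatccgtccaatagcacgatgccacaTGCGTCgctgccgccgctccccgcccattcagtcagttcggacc
The other lsy-12 site, chrV:9856664-9856764 on the minus strand, lay in an intron, 3249 bp into the gene and 298 bp upstream of an internal transcript start.
lsy-12 intron site: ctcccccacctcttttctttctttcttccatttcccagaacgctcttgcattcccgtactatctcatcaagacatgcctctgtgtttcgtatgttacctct
The lim-6 site, chrX:1062808-1062908 on the plus strand, lay 9594 bp upstream of lim-6.
lim-6 upstream site: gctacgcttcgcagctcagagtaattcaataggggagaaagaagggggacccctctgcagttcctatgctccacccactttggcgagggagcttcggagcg
A further pair, at ceh-36, were the strongest sites of that gene below the threshold, chrX:14194446-14194546 and chrX:14185753-14185853, both on the minus strand.
ceh-36 upstream site: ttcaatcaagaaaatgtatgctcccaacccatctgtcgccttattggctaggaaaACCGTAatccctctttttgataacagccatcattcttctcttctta
ceh-36 intron site: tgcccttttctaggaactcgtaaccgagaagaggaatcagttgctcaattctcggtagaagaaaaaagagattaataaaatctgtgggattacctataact
The motif ACCGTA and the motif GACGCA both occurred at the lsy-12 upstream site, each on the opposite strand to the one shown.

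Of the 10 genes, lsy-12, unc-37 and lim-6 had a peak past the threshold in the window (3 of 10, all protein-coding, so 3 of the 9 protein-coding members or 33.3%). Among all protein-coding genes the share was 41.1% with windows built in the same way. The regulators were not above that background. Of the 9 protein-coding genes, 7 had a pooled peak of any strength (77.8%, against 69.1% of all protein-coding genes). Pooled peaks with a summit of each replicate within 200 bp were found at 5 of the 9, against 60.7% of protein-coding genes. In the list of replicate 1, 7 of the 9 had a peak, against 72.1%, and in that of replicate 2, 8 of the 9, against 75.6%. The microRNA lsy-6 had none in the pool, against 78.2% of microRNA genes with a pooled peak and 46.0% with one past the threshold. No windows of the 10 genes overlapped, so each peak belongs to 1 gene of the list.

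**Figure D1:**
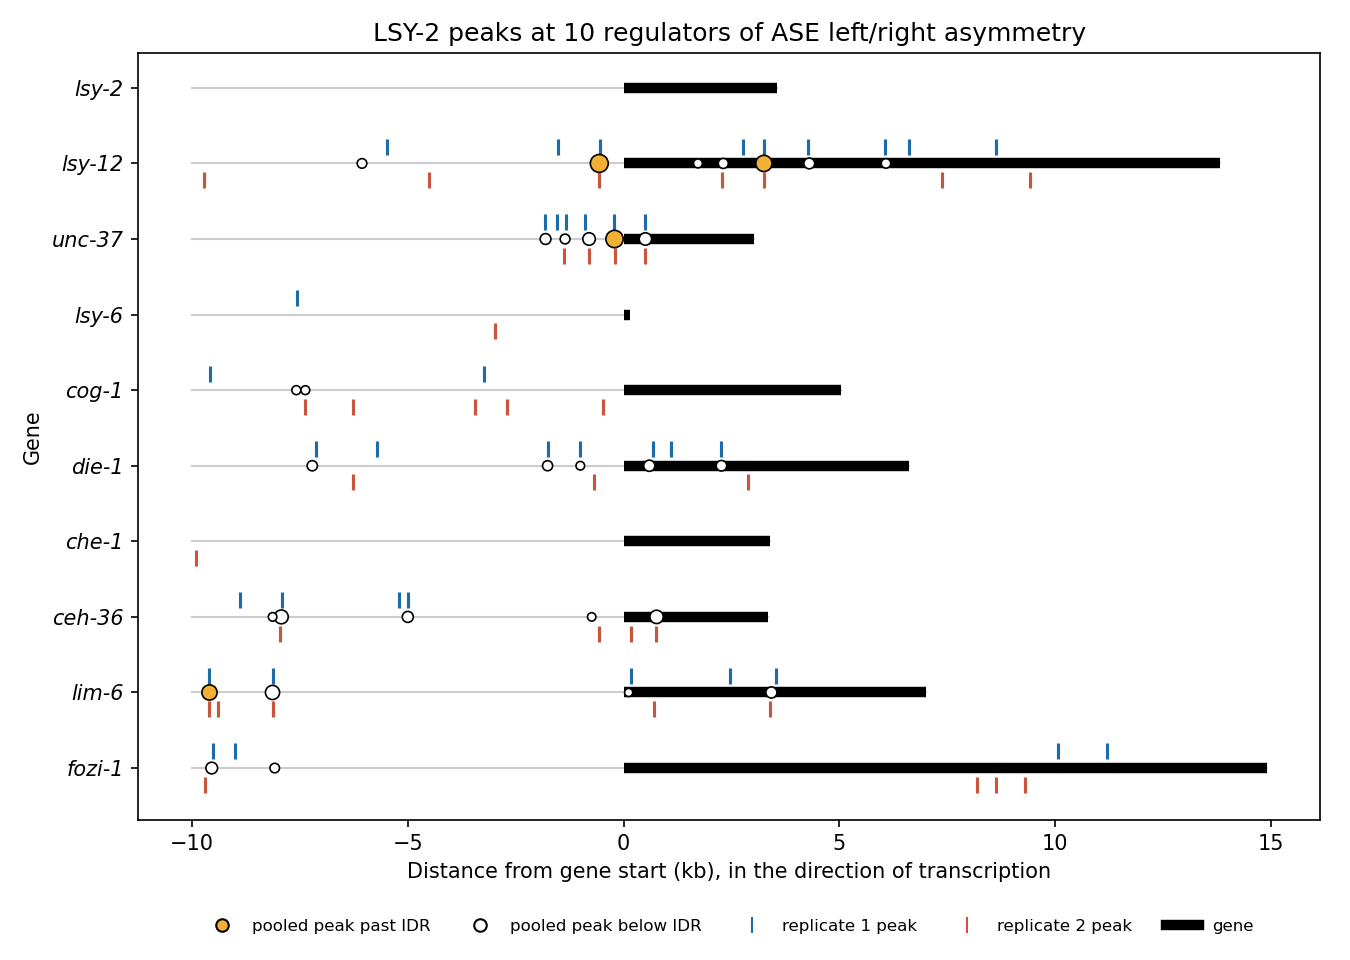
Peaks around each gene, with the distance from the gene start in kb along transcription on the x axis and the gene on the y axis; black bars are genes (lsy-6 drawn longer than its scale to be seen), grey lines the 10 kb upstream, circles pooled peaks with area growing with log signal, and ticks the summits of replicate 1 (above) and replicate 2 (below). Filled circles past the IDR threshold stand at lsy-12, unc-37 and lim-6, and lsy-2 has no mark of any kind.

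Among the 10 genes, lsy-12 and unc-37 carried the strongest sites. At the lsy-12 upstream site (chromosome V, 9860429 to 9860620) the signal was 77.1 in replicate 1 and 62.1 in replicate 2, a mean of 69.6 ± 10.6 (SD, n = 2). Its pooled signal was 135, rank 1324 of 30000. The replicates ranked it nearly alike within their own lists, 1297 in replicate 1 and 1286 in replicate 2. The gene has 10 distinct annotated transcript starts, and the next gene with a start near this site, srab-17, begins 7884 bp away.

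The lsy-12 intron site (9856544 to 9856883) had signals of 39.5 and 27.7 in replicates 1 and 2, a mean of 33.6 ± 8.33 (SD, n = 2), and a pooled signal of 70.7 at rank 2629. It was thus below the median of peaks past the threshold, whereas the upstream site was above it. Around these stood 5 weaker pooled peaks, 4 inside the gene and 1 located 6061 bp upstream. Their pooled signals ran from 8.62 to 13.3, and none had a summit of both replicates within 200 bp.

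At unc-37 (chromosome I, 6742299 to 6745329, minus strand), 1 peak past the threshold (6745370 to 6745709) stood in the intergenic stretch before the gene, with its summit 211 bp from the start. The replicates gave 52.4 and 53.3, a mean of 52.8 ± 0.647 (SD, n = 2). Its rank was 2007 in replicate 1 and 1513 in replicate 2, so the ranks lay further apart than at the lsy-12 upstream site although the signals were closer. The pooled signal was 107, rank 1702. No other protein-coding start lay nearer than W02D3.12, at 3556 bp. The unc-37 window had the most pooled peaks for its length of the 10, at 3.84 per 10 kb, above 68.8% of protein-coding genes. All 5 lay between 1809 bp upstream and 504 bp downstream of the start. Of these 5, 4 had a summit of each replicate within 200 bp. The 4 weaker ones had pooled signals from 10.5 to 20.8, and 3 of them lay within the neighbouring gene fnci-1.

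These peaks made lsy-12 and unc-37 the only members with a promoter peak past the threshold, defined as a summit no more than 1000 bp before or 200 bp after any transcript start of the gene (2 of 9 protein-coding members, 22.2%, against 16.9% of all protein-coding genes). A gene was counted once, however many such summits it had: lsy-12 had 2 and unc-37 had 1. With all pooled peaks, lim-6 and ceh-36 also had one (4 of 9, against 39.0% of all protein-coding genes). These added peaks were among the weaker of the pool. At lim-6 the pooled signal was 7.41 (rank 29973 of 30000), with a summit in replicate 1 alone. At ceh-36 it was 7.80 (rank 28627), with a summit in replicate 2 alone.

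The ASEL gene lim-6 (chromosome X, 1072452 to 1079452) had the remaining peak past the threshold, from 1062688 to 1063027. Signals were 29.5 in replicate 1 and 14.5 in replicate 2, a mean of 21.97 ± 10.6 (SD, n = 2), the widest relative difference among the 4. Its rank was 3677 in replicate 1 and 6264 in replicate 2, so replicate 2 alone would not place it among its strongest 4218. Its pooled signal of 48.9, rank 3674, lay not far above the weakest signal past the threshold. The nearest start was that of unc-1, a stomatin-like protein gene, which begins 405 bp from the summit and is no member of this circuit. A neighbouring peak 8134 bp upstream of lim-6 fell short of the threshold at a pooled signal of 34.4, with 20.9 and 17.8 in replicates 1 and 2, and was also nearest to unc-1. Within lim-6 itself, 2 intronic peaks had pooled signals of 7.41 and 14.3. The second was found in both replicates, at 7.58 in replicate 1 and 8.98 in replicate 2.

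**Figure D2:**
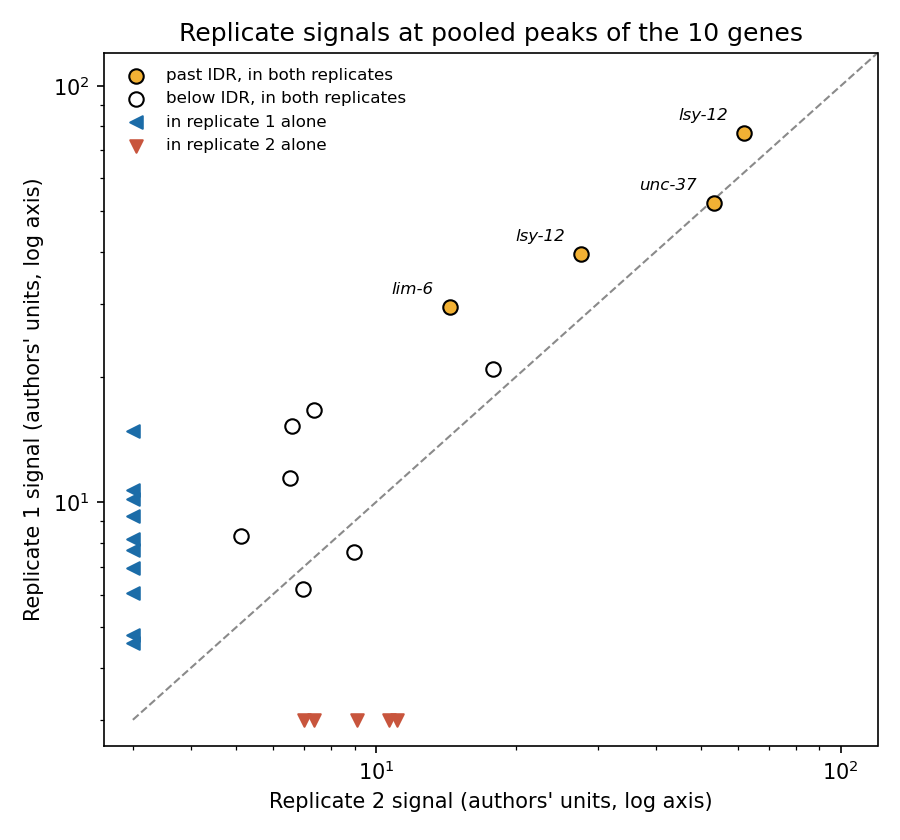
Signal in replicate 2 (x axis) and replicate 1 (y axis), both in the authors' units on log axes, at the pooled peaks of the 10 genes; circles were found in both replicates, triangles at the margin in 1 replicate alone (their position along the other axis carries no value), and the dashed line marks equality. The 4 peaks past the threshold are named and lie between 14.5 and 77.1, and the unc-37 peak sits on the line.

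In the double-negative loop, lsy-6, cog-1 and die-1 had no peak past the threshold, unlike the co-repressor gene unc-37. Around lsy-6 (chromosome V, 10647232 to 10647304), the microRNA that LSY-2 is required for, the pooled list had no summit over a stretch of 54650 bp. Of protein-coding genes, 15.4% lay in a pooled stretch at least as long. The nearest pooled summit lay 10866 bp beyond the downstream end of lsy-6. The nearest past the threshold, 14321 bp downstream, had a pooled signal of 60.2 and stood 158 bp from the start of sqv-4. Replicate 1 had 1 weak peak 7571 bp upstream (signal 6.47, rank 20403) and replicate 2 had 1 located 2979 bp upstream (4.75, rank 27837). These lay 4592 bp from each other, so the replicates did not share a site. The mature microRNA that acts on cog-1 is shown as the product of this locus, with its seed in capitals, as annotated by RefSeq on the WBcel235 assembly (chromosome V, 10647280 to 10647301, plus strand).
lsy-6 mature strand: uUUUGUAUgagacgcauuucga

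The lsy-6 target cog-1 (chromosome II, 14902493 to 14907533) had 2 pooled peaks, 7583 and 7373 bp upstream, with pooled signals of 8.73 and 8.46. The first had no summit of either replicate within 200 bp, and the second had one in replicate 2 alone (6.99). The peak nearest to the cog-1 start was seen in replicate 2 alone, 475 bp upstream with a signal of 4.90. Replicate 2 had 5 peaks in the window and replicate 1 had 2, and no summit of one lay within 200 bp of a summit of the other. The closest, 3235 bp upstream in replicate 1 (10.1) and 3454 bp upstream in replicate 2 (4.95), were 219 bp apart. No pooled summit lay within the gene, and the nearest past the threshold was 45394 bp upstream, 160 bp from the start of rbm-28.

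At die-1 (chromosome II, 10061302 to 10067917, minus strand), the ASEL-promoting factor, 5 pooled peaks were found between 7213 bp upstream and 2266 bp downstream of the start, with pooled signals of 8.13 to 14.6. All 5 had a summit of replicate 1 within 200 bp, at signals of 4.58 to 10.2. None of the 5 had a summit of replicate 2 that near, although replicate 2 had 3 peaks of its own in the window. The nearest replicate 2 summit was 321 to 1370 bp from those 5 replicate 1 summits. The nearest peak past the threshold was 16063 bp downstream of the gene.

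The determinants of both ASE neurons also lacked a peak past the threshold. In the che-1 window (chromosome I, 6517529 to 6520918) neither the pool nor replicate 1 had a peak, and replicate 2 had 1, located 9895 bp upstream, with a signal of 11.2. The nearest pooled summit was 9645 bp from the gene on its downstream side. A strong peak stood just outside the window, 11188 bp upstream of che-1 and 143 bp from the start of nuo-2. Its pooled signal was 209, rank 752, with 124 in replicate 1 and 82.7 in replicate 2, a mean of 104 ± 29.5 (SD, n = 2). The lim-6 peak at 9594 bp was the one just inside the 10 kb limit. At ceh-36 (chromosome X, 14183221 to 14186566) there were 5 pooled peaks, or 3.75 per 10 kb. This put ceh-36 second to unc-37 among the 10 genes and above 67.9% of protein-coding genes. The stronger of its sites shown above, 7930 bp upstream, had a pooled signal of 31.0, with 16.6 in replicate 1 and 7.34 in replicate 2. Its nearest start was that of ceh-37, another Otx-type homeobox gene, which begins 4327 bp away. The intron site, 763 bp into ceh-36, had a pooled signal of 26.5 and a summit in replicate 2 alone (11.1). A peak of pooled signal 196, rank 814, lay outside the window 9162 bp downstream of ceh-36 and 4 bp from the start of idhb-1. The ceh-36 sites and the lim-6 peak 8134 bp upstream were the 3 peaks below the threshold with a −log10 q value at the ceiling of 4.16, the value shared by 100% of peaks past it.

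The ASER gene fozi-1 (chromosome III, 9281780 to 9296675) had the longest window of the 10, 24896 bp, and 2 pooled peaks, 9542 and 8083 bp upstream and both nearest to the start of clip-1. The first had signals of 15.2 and 6.60 in replicates 1 and 2 and a pooled signal of 16.4. It held GAAGCC within 50 bp of its summit, as the only pooled peak in the windows of the 10 genes to do so. That is 1 of 26 such peaks below the threshold (3.85%), against 2.18% of all pooled peaks below it. Within the gene, replicate 1 had 2 peaks and replicate 2 had 3, none of them at the same place within 200 bp and none in the pooled list.

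Of the 10 genes, only that for LSY-2 itself had no peak in its window in any of the 4 lists. For the pooled list alone, 30.9% of all protein-coding genes had none. The share with none in any of the 4 lists was not counted. It cannot exceed the share without a replicate 2 peak, and 75.6% of protein-coding genes had such a peak. On chromosome X, lsy-2 (2089704 to 2093256) lay in a stretch of 66456 bp between neighbouring pooled summits, at 2065511 and 2131967, that held 15 protein-coding genes, lsy-2 among them. The corresponding stretch was 50666 bp in replicate 1 and 52539 bp in replicate 2. The median distance between neighbouring pooled summits was 1190 bp, and 79 of 29994 such distances were as long as the one at lsy-2 or longer. Such long stretches hold many genes, however: 12.3% of protein-coding genes lay in a pooled stretch at least as long, 14.8% by replicate 1 and 11.2% by replicate 2, each against its own length. To reach a peak past the threshold from lsy-2 took 124686 bp, the longest such distance of the 10 genes. Extra copies of the lsy-2 sequence in the insertion were not measured, and their part in the values at this locus was not tested.

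**Figure D3:**
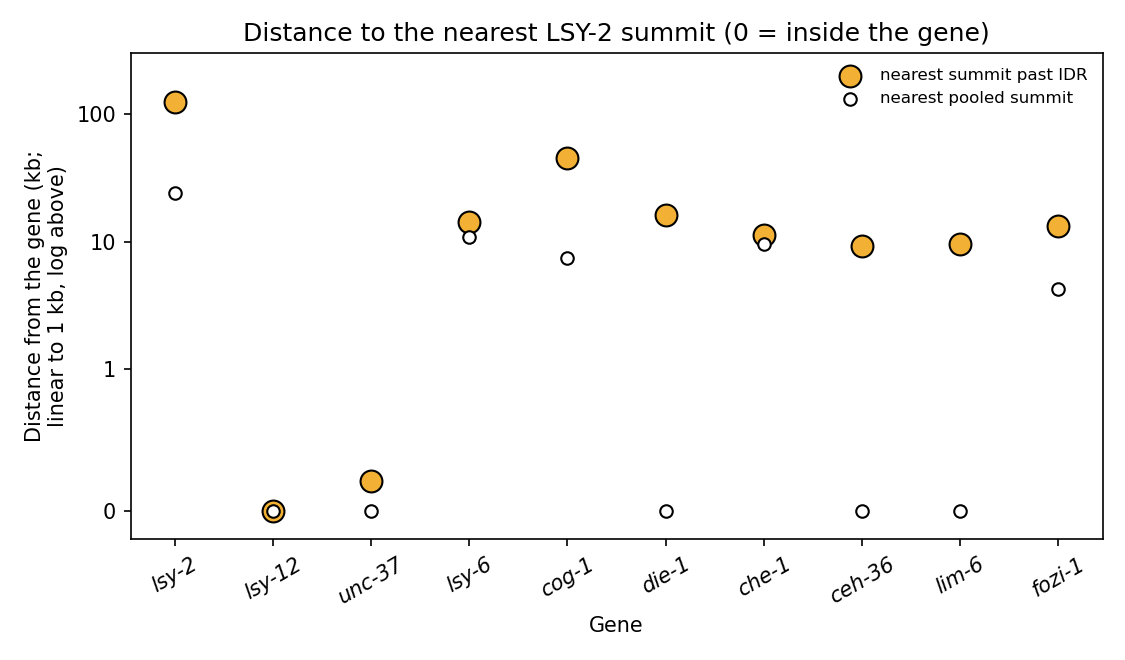
Distance in kb (y axis, linear to 1 kb and log above) from each gene (x axis) to the nearest pooled summit (small open circles) and the nearest summit past the IDR threshold (large filled circles), with 0 for a summit inside the gene. Only lsy-12 has a summit past the threshold inside the gene, and lsy-2 is farthest from both kinds.

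In signal, the regulators were spread over the range of all genes. The strongest pooled signal in the window put lsy-12 above 81.0% of protein-coding genes, unc-37 above 76.8%, lim-6 above 61.9% and ceh-36 above 52.6%. Below these came fozi-1 at 40.9%, die-1 at 38.8% and cog-1 at 32.2%, while lsy-2 and che-1 belonged to the 30.9% of protein-coding genes with no pooled peak in the window. Windows differ in length. Summed over all 10, lsy-6 included, there were 1.87 pooled peaks per 10 kb. The median over single protein-coding genes was 1.92, a different measure. Gene by gene, lim-6 (2.35), lsy-12 (2.94), die-1 (3.01), ceh-36 (3.75) and unc-37 (3.84) lay above that median. Below it were cog-1 (1.33), fozi-1 (0.803), and lsy-2 and che-1 without a pooled peak.

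**Figure D4:**
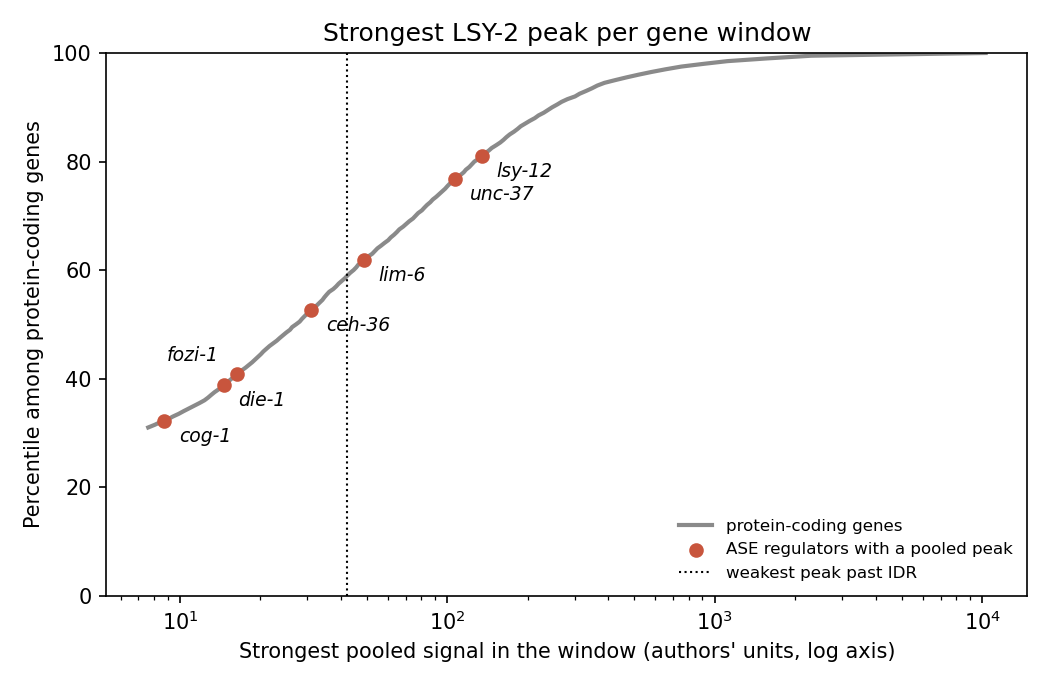
Strongest pooled signal in the window (x axis, authors' units, log axis) against its percentile among 19973 protein-coding genes (y axis, %); the grey line is all protein-coding genes, points are the 7 regulators with a pooled peak, and the dotted line marks the weakest signal past the IDR threshold, 42.2. Points of lsy-12, unc-37 and lim-6 lie to the right of that line and cog-1 near the bottom of the curve.

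The 10 windows held 30 pooled peaks, 4 past the threshold and 26 below it. All 4 of the former had a summit of each replicate within 200 bp, as did 99.1% of all 4218 peaks past the threshold. Of the 26 weaker peaks, 7 did (26.9%, 95% exact Clopper-Pearson interval 11.6 to 47.8), against 39.3% of all pooled peaks below the threshold, a share within that interval. Another 10 were found in replicate 1 alone (38.5%, 20.2 to 59.4), 5 in replicate 2 alone (19.2%, 6.55 to 39.4) and 4 in neither (15.4%, 4.36 to 34.9). Over all pooled peaks below the threshold these shares were 26.3%, 24.0% and 10.4%, each within its interval. The weaker peaks had a median pooled signal of 11.3, against 12.5 for all peaks below the threshold. Seen from the replicates, 12 of 38 replicate 1 peaks in the windows (31.6%, 17.5 to 48.7) and 12 of 34 replicate 2 peaks (35.3%, 19.7 to 53.5) had a summit of the other replicate within 200 bp. Over all 30000 peaks of each replicate these shares were 48.7% and 47.3%, the former at the upper bound of its interval and the latter within. The intervals cover the counting of peaks only, and neighbouring peaks are not independent. Where both replicates had a summit, replicate 1 had the higher signal at 8 of 11 peaks, with a median log2 ratio to replicate 2 of 0.51, and at 63.0% of such peaks in the whole pool.

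By the annotation, 16 of the 30 summits were intergenic, 13 intronic and 1 in a UTR exon, that of fnci-1 next to unc-37. The member itself had the nearest protein-coding start at 23 of them and another gene at 7. Summits past the threshold were more GC-rich in the whole list than those below it, with a median GC content of 45.5% against 32.7% within 50 bp. The same stretches of the 4 member peaks had 57.4% at lim-6, 56.4% and 45.5% at lsy-12, and 42.6% at unc-37. The motif GAGAGA lay within 50 bp of the unc-37 summit. The lsy-12 upstream site held GACGCA and also ACCGTA, and none of the 4 motifs was found at the lsy-12 intron site or the lim-6 site. Over all peaks past the threshold the shares were 28.7% for GAGAGA, 17.4% for GACGCA, 7.73% for ACCGTA and 1.78% for GAAGCC, counting both strands. A match of letters describes the sequence and is not a binding site.

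Other genes of the ASE circuit were taken from a list of 27 names, of which 26 were annotated. A peak past the threshold lay in the window of 11 of the 26 (42.3%, against 41.1% of all protein-coding genes). With 2 kb upstream in place of 10 kb it was 2 of the 26 (7.69%, against 22.7%), so the share set beside the background depends on the window. By the nearest start, 16.1% of all protein-coding genes had a peak past the threshold, against 41.1% in the 10 kb window. How many of all genes have their own start nearest to the strongest peak was not counted. With 10 kb, 2 of the 11 had their own start nearest to the strongest peak in the window. Both products are chromatin factors, but genes of that kind were not tested as a group. The gene lsy-13, whose product works with LSY-12, had a peak 192 bp upstream of its start (chromosome IV, 16863618 to 16863757), with signals of 51.1 and 48.8 in replicates 1 and 2, a mean of 49.97 ± 1.64 (SD, n = 2), and a pooled signal of 98.2. The bromodomain gene lin-49 had one 425 bp upstream (chromosome IV, 8620088 to 8620427), with 48.7 and 17.5, a mean of 33.1 ± 22.1 (SD, n = 2), and a pooled signal of 64.1. The replicates lay far apart at lin-49 and close together at lsy-13.

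In the other 9 genes the strongest peak of the window was nearest to another gene. Among regulators these were lsy-22 (pooled signal 295, 127 bp from the start of F27D4.7), the T-box gene tbx-37 (123, 119 bp from Y47D3A.14) and tbx-38 (90.1, 447 bp from C24H11.2). Among genes expressed in ASEL they were the receptor guanylyl cyclase genes gcy-6 (117, nearest gna-1) and gcy-14 (42.4, nearest ZC412.10) and the peptide gene flp-4 (54.1, nearest bath-38). In ASER, 1 of 6 genes had one, gcy-22 (80.7, nearest sbt-1), against 41.1% of all protein-coding genes. The ASER genes gcy-1, gcy-3, gcy-4 and gcy-5 had no peak in any list, and neither did gcy-20, hlh-14 and lsy-27. These were 7 of the 26, and the share of all genes with no peak in any list was not counted. A pooled peak was present at 16 of the 26, against 69.1% of all protein-coding genes. Among genes of both neurons, the channel subunit gene tax-2 (70.1, nearest rbpl-1) and the ciliary kinesin gene osm-3 (165, nearest algn-14) had one. The windows of gcy-1 and gcy-3 overlap, as do those of gcy-4 and gcy-5, so these genes are not independent.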

How the data were processed

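LSY-2 ChIP-seq peaks of 2 biological replicates of 1 group were used. Per the text listings deposited with the files, each list was called against a control alignment on ce11, and the pooled and replicate lists were the source of the IDR list. Which peak caller was used is not stated in the labels or listings. The authors' deposited signal per peak and the deposited −log10 q value, named by the narrowPeak format, were used as they stand. Sequencing depth is unknown.

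Positions, counted from 1, were matched to Ensembl release 115 genes and the RefSeq genome of the same assembly. The main rule counts summits from 10 kb upstream of the gene start to the gene end. A replicate's signal at a pooled peak is that of its nearest summit within 200 bp, so 1 replicate peak can serve 2 pooled peaks. Replicate means have n = 2, and no test between conditions was possible. The same counts over all protein-coding genes served as background. The members, the lists of other genes and the motifs were chosen with earlier results of these data known. All 10 members were named, as were the genes with the nearest start to their IDR peaks and every listed circuit gene with an IDR peak. Counts were made in pandas 2.3.3 and numpy 2.4.6 under Python 3.11.15, exact intervals with scipy 1.17.1 and figures with matplotlib 3.10.9. The counting was tested on simulated data. Alternatives were other windows, distances and thresholds and each replicate alone. The ce10 lists were not used here.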

Additional observations from a re-analysis of the deposited data

How the results depend on the processing

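The count of 3 regulators with a peak past the threshold was 2 in 4 alternatives, lim-6 being lost in each, while the share of all protein-coding genes fell from 41.1% too. That share was 27.2% with the stronger 2109 peaks, 31.0% with 5 kb upstream, 22.7% with 2 kb upstream and 16.1% by the nearest start. Beside these, 2 of the 9 protein-coding members is 22.2%. This is below the share with the stronger peaks and with 5 kb, near it with 2 kb, and above it by the nearest start. The count stayed 3 without the gene body (39.1%) or with any overlap (41.7%). By the strongest 4218 peaks of each replicate it ran from 2 to 3, with lim-6 lost without replicate 1. The promoter count was 2 in all 4 alternatives, while the share of all protein-coding genes with such a peak moved from 16.9%. That share was 21.4% with 2000 bp upstream and 13.8% with 500 bp upstream. It was 17.0% without replicate 1 and 16.8% without replicate 2. The 22.2% of members was near the share with 2000 bp and above it in the other alternatives. Pooled peaks in the windows numbered 30, 20 with 5 kb upstream, and 11 where both replicates had a summit within 200 bp. The share of pooled peaks found in both replicates was 36.7%, and 30% to 50% with other distances or interval overlap. For the other circuit genes, in alternatives chosen after seeing the data, the count of 11 of 26 fell to 6 with the stronger peaks (23.1%), 5 with 5 kb upstream (19.2%), and 2 with 2 kb upstream or the nearest start (7.69%), each below the share of all protein-coding genes under the same setting. By replicate alone it ran from 10 to 11. The cause of these moves was not tested. The lists carry no read depth, and there were 2 replicates. No paired analysis was possible because there is 1 group.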
